A study of Homo sapiens with 8 samples.

Results

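The genes described here encode the ephrin, semaphorin and SLIT guidance cues and their receptors, and they were followed across HAP1 cells that lack the chromatin remodelling subunits SMARCB1, SMARCA4 or both. Members were chosen by gene symbol alone: all EPHA, EPHB, EFNA and EFNB genes, all SEMA genes with a class number and a letter, all plexins (PLXN), NRP1 and NRP2, and the ROBO and SLIT genes. Of the 19541 genes in the authors' deposited table, 58 met this rule: 13 Eph receptors, 8 ephrins, 20 semaphorins, 9 plexins, 2 neuropilins, 3 SLIT ligands and 3 ROBO receptors. Symbols of these families without a row were not analysed here.

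HAP1 is an established, near-haploid human line that came from a chronic myeloid leukaemia line and grows attached. SMARCB1 is a core subunit of the SWI/SNF (BAF) remodelling complexes, and SMARCA4 is one of their ATPases. RNA from 8 samples was sequenced, 2 in each of 4 groups. SMARCB1-null cells were made with CRISPR guide 1 in one sample and guide 2 in the other, both at passage 12. SMARCA4-null cells were likewise made with guide 1 and guide 2, both at passage 12. Double-null cells carried SMARCB1 guide 1 and SMARCA4 guide 2 in both samples, which were taken at passages 15 and 18. Wildtype HAP1 was taken at passages 9 and 12 of a single line. The 2 samples of each single null carry different guides and so come from separate edits. In wildtype and double-null cells the samples of a pair differ in passage. For these 2 groups the labels do not say that the samples came from separate clones or cultures. Any p-value reflects only how far these samples spread, which may be technical within the wildtype and double-null pairs. In the single nulls that spread includes the difference between guides. Later passage and loss of both genes cannot be told apart in double-null cells. All 3 comparisons share the same 2 wildtype samples.

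Eph receptors are receptor tyrosine kinases that bind ephrins on neighbouring cells, and signals pass in both directions across the contact. Ephrin-A ligands are held by a lipid anchor and ephrin-B ligands span the membrane. Class 3 semaphorins are secreted and act through neuropilins paired with plexins, whereas most other classes are membrane proteins that bind plexins directly. SLIT proteins are secreted ligands of the ROBO receptors. Members of these families steer axons and also act in cell sorting, migration and blood vessel growth.

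The deposited values are the authors' own comparisons of each null with wildtype, so most members have no value per library. For every member, a level in each group was computed from the gene's total reads and the 3 ratios, in depth-corrected reads per library, that is, reads scaled to a library of mean depth. Whole reads per library could be recovered for 7 members. Libraries of a group are then known only as the deeper and the shallower, not by guide or passage. Depth was 70.2 and 67.9 megareads (M) in SMARCB1-null cells, 92.3 and 71.5 M in SMARCA4-null cells, 103 and 75.7 M in double-null cells, and 81.8 and 68.3 M in wildtype. In bulk RNA, fewer cells with a transcript and less transcript per cell cannot be told apart.

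The targeted genes had fewer reads in their own nulls. In the authors' deposited table, SMARCB1 stood at a ratio of 0.109 in SMARCB1-null cells and 0.182 in double-null cells, and SMARCA4 at 0.0918 in SMARCA4-null cells and 0.152 in double-null cells, all 4 called. SMARCA2, the other ATPase of the complex, was called in none of the 3 comparisons.

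Reads per library were recovered for 1 of 10 neuron markers (NEFL) and 2 of 10 skeletal muscle markers (MYOG and MYOD1), so where the others lie within a pair of libraries was not measured. The deeper double-null library held 85852 depth-corrected reads of the neurofilament gene NEFL, against 3135 in the shallower one and 0.964 and 139 in the wildtype libraries. It also held 829 reads of the netrin receptor gene DCC, where the shallower library had none. The levels of 10 neuron markers summed to 5078 in SMARCB1-null cells, 11350 in SMARCA4-null cells, 140963 in double-null cells and 13084 in wildtype, and NEFL and SYP were the 2 called, both higher in double-null cells. The deeper SMARCB1-null library held 92.1 reads of the muscle regulator gene MYOG, against 2.32 in the shallower one and none in wildtype, and 41.6 reads of MYOD1, of the same family, against none in the shallower one. The levels of 10 skeletal muscle markers summed to 14860 in SMARCB1-null cells, 1259 in SMARCA4-null cells, 1337 in double-null cells and 579 in wildtype, with none of the 10 called in SMARCB1-null cells. Of 5 blood markers measured, all were under 10 depth-corrected reads in wildtype, with PTPRC and SPI1, which mark most leukocytes and myeloid cells, at or near 0, so the myeloid origin of HAP1 was not visible in these genes. The part of these transcripts in the member results was not tested, except where reads per library were recovered.

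A call means an adjusted p-value (FDR) under 0.05 in the authors' deposited table. In SMARCB1-null cells, 3 members were called higher and 16 lower, which is 32.8% of the 58 members, against 13.6% of all genes (7.86% higher and 5.76% lower). In SMARCA4-null cells, 8 were called higher and 7 lower, 25.9% of members, against 11.9% of all genes (7.39% higher and 4.49% lower). In double-null cells, 8 were called higher and 10 lower, 31.0% of members, against 18% of all genes (12% higher and 5.97% lower). Of the 58 members, 54 had at least 1000 total reads. Among genes with that many reads, 35.2% of members and 15.7% of all genes were called in SMARCB1-null cells, 25.9% and 13.7% in SMARCA4-null cells, and 33.3% and 20.3% in double-null cells. In SMARCB1-null cells the members leaned down, with 29.6% called lower against 6.84% of all such genes. The median log2 ratio of the members was -0.26 in SMARCB1-null cells, -0.10 in SMARCA4-null cells and 0.20 in double-null cells, beside 0.06, 0.03 and 0.17 over all genes. In all, 27 members were called in at least 1 comparison and 31 in none.

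**Figure D1:**
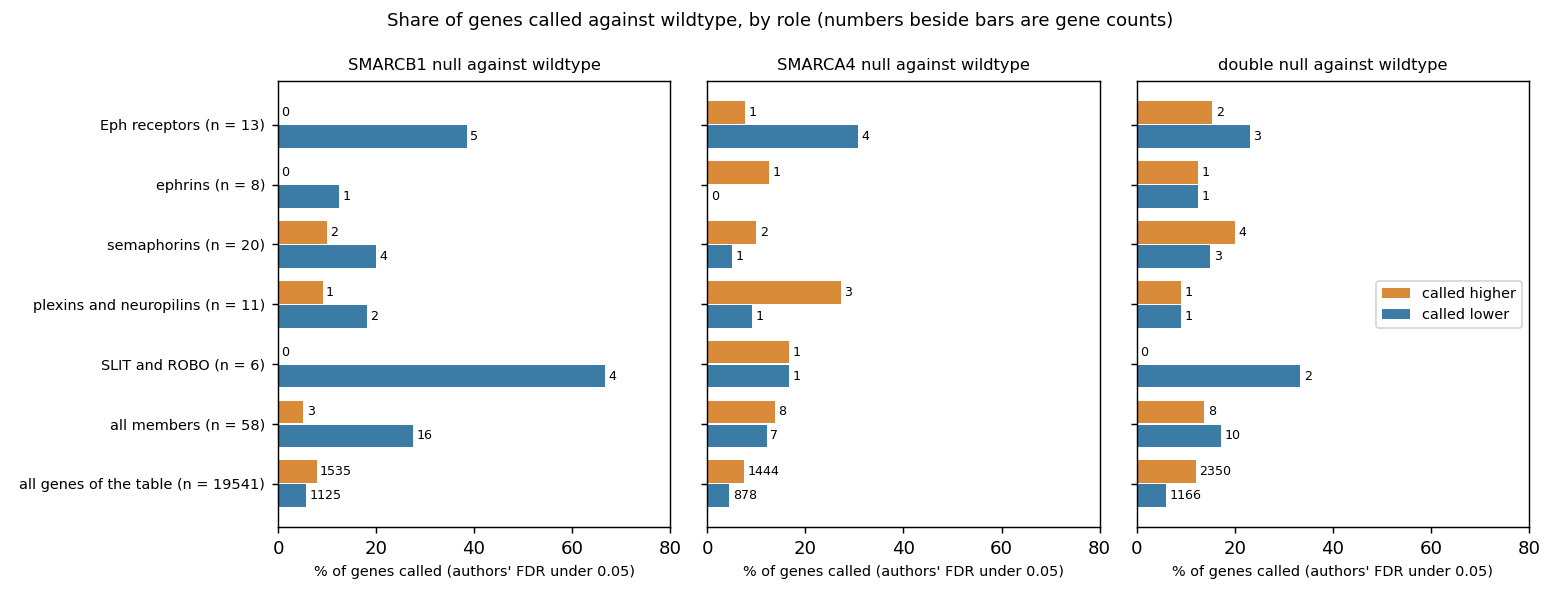
Share of each role called higher (orange) or lower (blue) in SMARCB1-null, SMARCA4-null and double-null cells against wildtype, in percent of the genes of that role, with gene counts beside the bars. In SMARCB1-null cells the lower calls exceed the higher ones in every role, up to 4 of 6 SLIT and ROBO genes, while over all genes 1535 were called higher and 1125 lower.

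**Figure D2:**
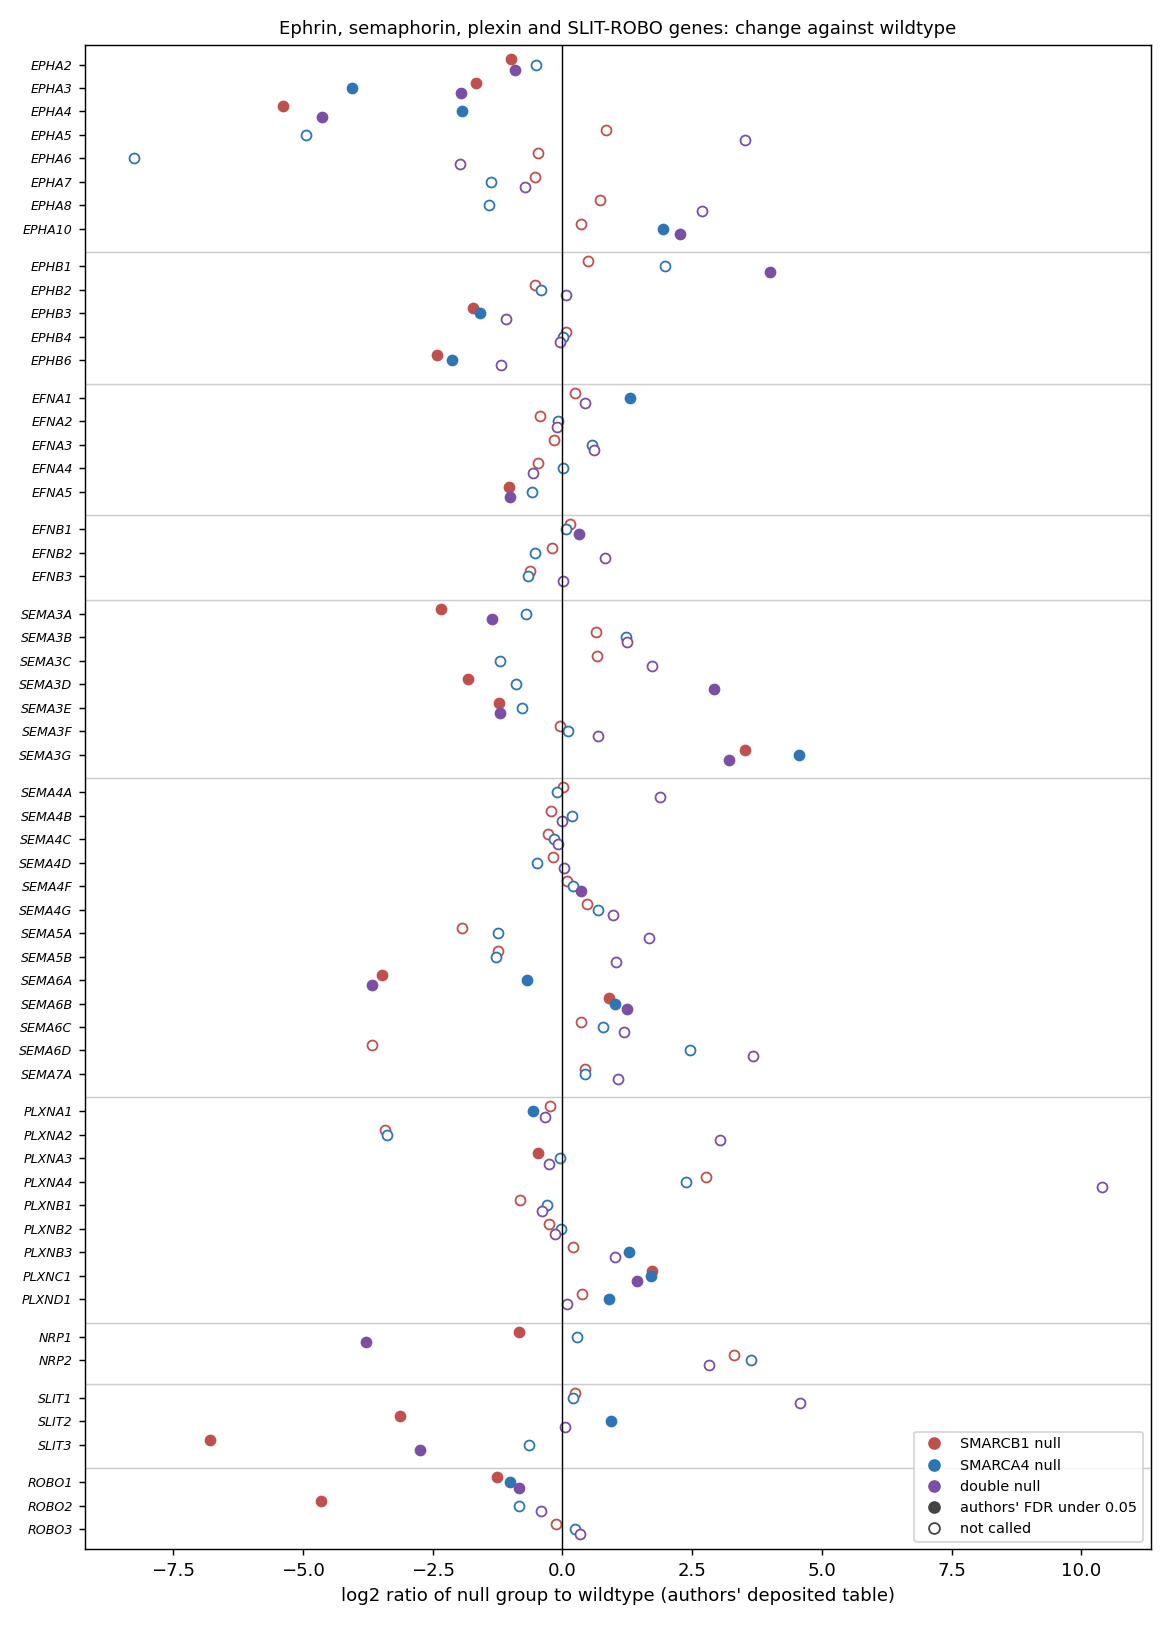
Log2 ratio of each null to wildtype (x axis) in the authors' deposited table for all 58 members, in rows grouped by family. Filled points were called by the authors' FDR and open points were not. EPHA4, EPHA3, ROBO1 and SEMA6A have filled points left of 0 for all 3 nulls, PLXNC1, SEMA3G and SEMA6B right of 0, and the point farthest to the right, PLXNA4 in double-null cells, is open.

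In wildtype cells the members spanned a wide range per length of transcript. Reads per kilobase of exon and megaread of depth (RPKM) were at least 10 for 10 members and under 1 for 19, with a median of 3.18. The highest levels were those of the ligand gene EFNB1 (68.8 RPKM), the receptor gene ROBO1 (49.2 RPKM) and the plexin genes PLXNB2 and PLXNA1 (21.3 and 20.8 RPKM). EPHB4 was the Eph receptor gene with the highest wildtype level (17.3 RPKM) and SEMA6A the semaphorin gene (15.4 RPKM). At the other end, 6 members were under 0.1 RPKM, with PLXNA4 lowest at 0.00157 RPKM. Neighbours in this order were not tested against each other. In SMARCB1-null cells the order at the top differed, with EFNB1 at 75.9 RPKM, ROBO1 at 20.5, EPHB4 at 18.1, PLXNB2 at 17.7 and PLXNA1 at 17.5 RPKM, and PLXNC1 next at 17.1 RPKM against 5.17 RPKM in wildtype.

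The sequences just upstream of 4 members are shown because these genes were called the same way in each of the 3 comparisons and a GENCODE transcript holds the annotated start: EPHA3 and EPHA4, which fell, and PLXNC1 and SEMA3G, which rose. Each is the 250 bases before the RefSeq start on GRCh38.p14, 5′ to 3′ on the gene's strand. They lie at chr3:89107371-89107620 on the plus strand for EPHA3, chr2:221574203-221574452 on the minus strand for EPHA4, chr12:94262369-94262618 on the plus strand for PLXNC1 and chr3:52445104-52445353 on the minus strand for SEMA3G. RefSeq lists 2 starts each for EPHA4 and PLXNC1, of which the first listed is shown, and the data do not say which start HAP1 cells use. Capitals mark matches to the motifs searched on both strands: the GC box, spelled GGGCGG, the CCAAT box, spelled CCAAT, the AP-1 site, spelled TGANTCA, the CRE, spelled TGACGTCA, the E-box, spelled CACGTG, and the TATA box, spelled TATAAA. None of these motifs contains another.
EPHA3: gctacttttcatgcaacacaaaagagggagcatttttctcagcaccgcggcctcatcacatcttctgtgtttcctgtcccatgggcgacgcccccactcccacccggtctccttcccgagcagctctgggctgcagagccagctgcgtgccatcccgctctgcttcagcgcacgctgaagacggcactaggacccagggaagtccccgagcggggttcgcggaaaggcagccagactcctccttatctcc
EPHA4: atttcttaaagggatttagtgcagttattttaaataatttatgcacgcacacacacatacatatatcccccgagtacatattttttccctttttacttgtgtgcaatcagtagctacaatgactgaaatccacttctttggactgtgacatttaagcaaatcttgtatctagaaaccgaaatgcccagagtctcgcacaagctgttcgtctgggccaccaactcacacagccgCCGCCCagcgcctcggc
PLXNC1: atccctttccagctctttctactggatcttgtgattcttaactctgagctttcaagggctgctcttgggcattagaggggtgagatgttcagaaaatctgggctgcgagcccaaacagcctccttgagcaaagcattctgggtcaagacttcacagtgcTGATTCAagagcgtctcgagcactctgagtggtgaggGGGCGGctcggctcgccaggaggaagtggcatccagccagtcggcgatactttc
SEMA3G: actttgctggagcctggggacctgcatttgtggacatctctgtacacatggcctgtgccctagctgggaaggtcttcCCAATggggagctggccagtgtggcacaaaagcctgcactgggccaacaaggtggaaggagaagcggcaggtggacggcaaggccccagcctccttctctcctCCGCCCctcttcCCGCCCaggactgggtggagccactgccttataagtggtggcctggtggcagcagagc

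EPHA3 held none of the motifs in this window, and EPHA4 held a single GC box on the opposite strand close to the start. PLXNC1 held 1 AP-1 match and 1 GC box, and SEMA3G held 1 CCAAT box and 2 GC boxes. The windows were 61.2%, 43.2%, 53.6% and 62.0% G or C for EPHA3, EPHA4, PLXNC1 and SEMA3G. Windows were available for 52 of the 58 members. A GC box was found in 75.0% of them, against 60.8% of 13328 windows over the table, a CCAAT box in 32.7% against 34.1%, and an AP-1 match in 1.92% (PLXNC1 alone) against 4.55%. A CRE was in 3.85% of member windows against 2.50%, an E-box in 7.69% against 8.29%, and a TATA box in 1.92% against 6.97%. Median G and C content was 67.0% in the members and 63.6% over the table. A match describes the letters and not a bound site.

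Among the 13 Eph receptor genes, 5 were called lower and 0 higher in SMARCB1-null cells. In SMARCA4-null cells 4 were lower and 1 higher, and in double-null cells 3 were lower and 2 higher. That was 38.5% of them in each null, beside 13.6%, 11.9% and 18% of all genes in that order. EPHA4, a receptor for both ephrin classes, had the lowest ratio of these 13 genes in SMARCB1-null and double-null cells. Its level was 138 depth-corrected reads in SMARCB1-null cells, 1506 in SMARCA4-null cells and 233 in double-null cells, against 5782 in wildtype. The authors' deposited table gave EPHA4 ratios of 0.0238 (FDR 4.78e-07), 0.261 (FDR 5.82e-08) and 0.0403 (FDR 1.04e-08). EPHA3, another receptor for ephrin-A ligands, had levels of 1630 in SMARCB1-null cells, 309 in SMARCA4-null cells and 1334 in double-null cells, against 5150 in wildtype. For EPHA3 the authors' deposited table gave ratios of 0.316 (FDR 3.58e-06), 0.0599 (FDR 1.84e-08) and 0.259 (FDR 2.52e-07). The lowest group was therefore SMARCB1-null cells for EPHA4 and SMARCA4-null cells for EPHA3. The difference between the nulls was not tested for either gene.

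EPHA2, a receptor of epithelial and tumour cells, fell to 1550 in SMARCB1-null cells and 1640 in double-null cells, against 3080 in wildtype. The authors' deposited table gave ratios of 0.503 (FDR 0.0186) and 0.533 (FDR 0.0256), and the SMARCA4-null level of 2168 was not called (ratio 0.704, FDR 0.333). EPHB3 and the kinase-deficient receptor gene EPHB6 fell in both single nulls. EPHB3 stood at 428 in SMARCB1-null cells, 467 in SMARCA4-null cells and 663 in double-null cells, against 1406 in wildtype. The single-null ratios of EPHB3 per the authors' deposited table were 0.304 (FDR 0.0252) and 0.332 (FDR 0.0395), and the double-null ratio of 0.471 was not called (FDR 0.119). EPHB6 stood at 187 in SMARCB1-null cells, 229 in SMARCA4-null cells and 439 in double-null cells, against 1001 in wildtype. EPHB6 had ratios of 0.187 (FDR 0.0108), 0.229 (FDR 0.0198) and, not called, 0.438 (FDR 0.124) per the authors' deposited table. The authors' shorter deposited table is, by its name, a filtered list of 409 genes. In it the double-null values of EPHB3 and EPHB6 did pass the threshold (FDR 0.000229 and 0.000201). It gave nearly the same ratios with far smaller p-values, and how its genes were filtered is not given. Those passes are therefore no separate support for a double-null change.

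Only EPHA10 and EPHB1 were called higher among the Eph receptors. EPHA10, whose kinase domain lacks catalytic activity, rose to 928 in SMARCA4-null cells and 1172 in double-null cells, against 243 in wildtype, and was 310 in SMARCB1-null cells. Ratios per the authors' deposited table were 3.81 (FDR 0.00196), 4.82 (FDR 6.64e-05) and 1.28 (FDR 0.834) in that order. EPHB1, a receptor with a large role in retinal axon crossing, rose to 2386 in double-null cells, against 150 in wildtype. The authors' deposited table gave that rise a ratio of 15.9 (FDR 5.27e-05). EPHB1 levels of 210 in SMARCB1-null cells and 591 in SMARCA4-null cells were not called. The double-null rise of EPHB1 stands beside the summed neuron marker level of 140963 there, and reads per library were not recovered for it.

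Of 8 ephrin ligand genes, 1 was called lower in SMARCB1-null cells (EFNA5) and 1 higher in SMARCA4-null cells (EFNA1). In double-null cells 1 was called higher (EFNB1) and 1 lower (EFNA5). Over all genes, 13.6% were called in SMARCB1-null cells, 11.9% in SMARCA4-null cells and 18% in double-null cells. The ephrin share was thus near that of all genes in both single nulls and not below it in double-null cells. EFNA1 rose to 612 depth-corrected reads in SMARCA4-null cells, against 248 in wildtype, for which the authors' deposited table gave a ratio of 2.47 (FDR 3.82e-13). In SMARCB1-null cells and double-null cells EFNA1 stood at 294 and 334 and was not called. EFNB1 rose to 22329 in double-null cells, against 17983 in wildtype, with ratio 1.24 and FDR 0.0289 per the authors' deposited table. EFNB1 had 19819 reads in SMARCB1-null cells and 18950 in SMARCA4-null cells, neither called. TMM scaling of the recovered reads would move every double-null log2 ratio by -0.19, which leaves 0.13 of 0.31 for EFNB1. That shift comes from recovered genes alone. Their median double-null log2 change was 0.23, against 0.08 over all genes with at least 1000 total reads. For a deeply read gene such as EFNB1 the shift may therefore be too large.

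EFNA5 is among the members with reads per library. It had 2774 and 2543 depth-corrected reads across the SMARCB1-null libraries, 3524 and 3630 in the SMARCA4-null libraries, and 2834 and 2503 in the double-null libraries, against 5722 and 5086 in wildtype, in each pair the deeper library first. Every null library lay below both wildtype libraries, and the SMARCA4-null pair lay above the other nulls. In the authors' deposited table EFNA5 was called in SMARCB1-null cells (ratio 0.492, FDR 0.000558) and double-null cells (ratio 0.494, FDR 0.000457) and missed the threshold in SMARCA4-null cells (ratio 0.662, FDR 0.0633). In edgeR's quasi-likelihood test on the recovered reads it was lower in all 3, by log2 changes of -1.02 (SE 0.0907, adjusted p = 7.26e-05), -1.02 (SE 0.0905, adjusted p = 4.91e-05) and, in SMARCA4-null cells, -0.60 (SE 0.0898, adjusted p = 0.00203). That last call was lost on leaving out any library of SMARCA4-null cells or wildtype. Such a fit leaves 1 library in a group, and calls over all genes tested fell widely too. The loss is thus not particular to EFNA5.

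EFNA2, also recovered, was not called in any of the 3 comparisons. It had 951 and 1158 depth-corrected reads across the SMARCB1-null libraries, 1176 and 1485 in the SMARCA4-null libraries and 1316 and 1315 in the double-null libraries, against 1562 and 1280 in wildtype. Both SMARCB1-null libraries lay under both wildtype libraries, by a log2 change of -0.43 (edgeR adjusted p = 0.0773, or 0.0412 with TMM scaling). The other nulls overlapped wildtype.

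**Figure D3:**
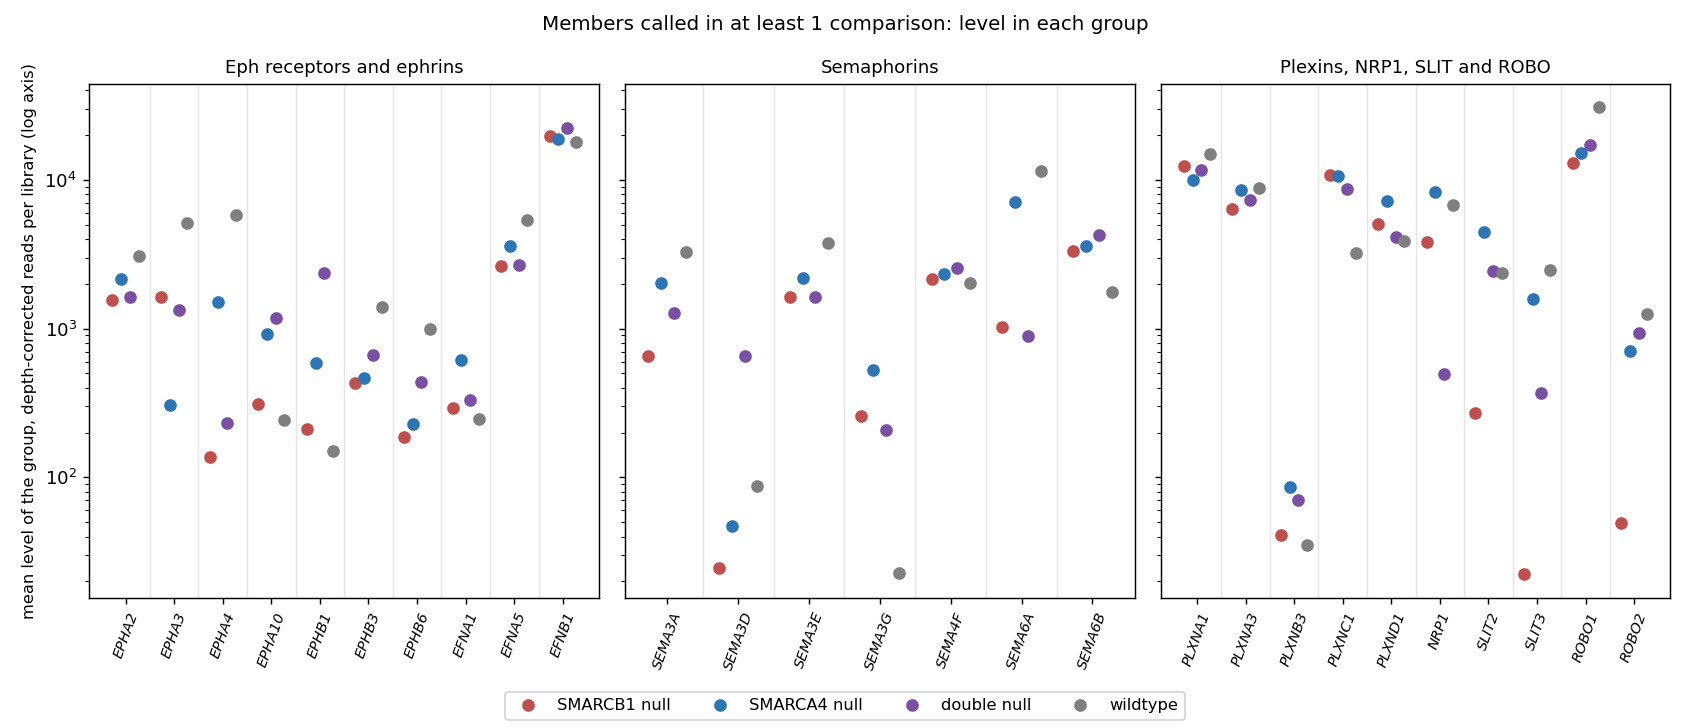
Level of each member called in at least 1 comparison (x axis) in SMARCB1-null, SMARCA4-null, double-null and wildtype cells, in depth-corrected reads per library on a log axis; each point is the mean of a group of 2 libraries and has no error bar because most members have no value per library. Wildtype (grey) is the highest of the 4 points for EPHA4, SEMA6A, SLIT3 and ROBO1 and the lowest for PLXNC1, SEMA3G and SEMA6B.

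Among the 20 semaphorin genes, 4 were called lower and 2 higher in SMARCB1-null cells, 1 lower and 2 higher in SMARCA4-null cells, and 3 lower and 4 higher in double-null cells. Beside these stand 13.6%, 11.9% and 18% of all genes called, in that order. The semaphorin share was near that of all genes in SMARCA4-null cells and above it in SMARCB1-null and double-null cells. The secreted ligand gene SEMA3G, whose product binds NRP2, was near absent in wildtype at 22.6 depth-corrected reads and rose to 260 in SMARCB1-null cells, 531 in SMARCA4-null cells and 209 in double-null cells. Its ratios per the authors' deposited table were 11.5 (FDR 0.00532), 23.5 (FDR 0.000105) and 9.26 (FDR 0.0130). SEMA3G remained a low gene even at its highest, 1.35 RPKM in SMARCA4-null cells.

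SEMA3A, the prototype repellent acting through NRP1, fell to 651 in SMARCB1-null cells and 1284 in double-null cells, against 3298 in wildtype. The authors' deposited table gave SEMA3A ratios of 0.197 (FDR 2.3e-05) and 0.389 (FDR 0.00209), and the SMARCA4-null level of 2039 was not called (ratio 0.618, FDR 0.158). SEMA3E, which binds PLXND1 without a neuropilin, fell to 1627 in SMARCB1-null cells and 1631 in double-null cells, against 3776 in wildtype, and was 2202 in SMARCA4-null cells. SEMA3E had ratios per the authors' deposited table of 0.431 (FDR 0.00278), 0.432 (FDR 0.00224) and, not called, 0.583 (FDR 0.0664).

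SEMA3D, a secreted cue of heart and vessel development, was called in opposite directions. It had 19.1 and 30.2 depth-corrected reads across the SMARCB1-null libraries, 51.3 and 43.0 in the SMARCA4-null libraries and 793 and 526 in the double-null libraries, against 86.7 and 87.7 in wildtype. No library of any group overlapped another group, and double-null cells stood far above the rest in both libraries. SEMA3D ratios per the authors' deposited table were 0.282 in SMARCB1-null cells (FDR 1.57e-05), 0.540 in SMARCA4-null cells (FDR 0.0934, not called) and 7.55 in double-null cells (FDR 8.92e-15). In edgeR's quasi-likelihood test on recovered reads the log2 change was -1.82 in SMARCB1-null cells (SE 0.305, adjusted p = 0.00256) and 2.92 in double-null cells (SE 0.304, adjusted p = 0.000120). Without the deeper double-null library, which had the higher NEFL reads of the pair, the double-null change was 2.59. The shallower library also held more NEFL reads (3135) than the wildtype libraries (0.964 and 139), so this fit did not remove high NEFL reads. Without the deeper SMARCB1-null library the SMARCB1-null change was -1.53 and no longer called, and the call was also lost without either wildtype library. Calls over all genes tested fell widely in these fits too, so the losses are not particular to SEMA3D.

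SEMA3E, SEMA3A and SEMA3D lie next to each other on chromosome 7 in RefSeq, with no other protein-coding gene between neighbours. In SMARCB1-null cells all 3 were called lower. In double-null cells SEMA3E and SEMA3A were called lower and SEMA3D higher, and in SMARCA4-null cells none of the 3 was called. Of the remaining class 3 genes, SEMA3G was called higher in all 3 comparisons, as described above, and SEMA3B, SEMA3C and SEMA3F were called in no comparison.

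The membrane semaphorin genes SEMA6A and SEMA6B went opposite ways. SEMA6A, a ligand of A-type plexins, fell to 1022 depth-corrected reads in SMARCB1-null cells, 7076 in SMARCA4-null cells and 897 in double-null cells, against 11413 in wildtype. The authors' deposited table gave SEMA6A ratios of 0.0895 (FDR 5.85e-20), 0.620 (FDR 0.000733) and 0.0786 (FDR 8.15e-20). SEMA6B had 2975 and 3671 depth-corrected reads across the SMARCB1-null libraries, 3342 and 3836 in the SMARCA4-null libraries and 3771 and 4700 in the double-null libraries, against 1954 and 1603 in wildtype. All 6 null libraries lay above both wildtype libraries. Ratios of SEMA6B per the authors' deposited table were 1.87 (FDR 0.0395), 2.02 (FDR 0.0159) and 2.38 (FDR 0.000686). In the same order, edgeR on recovered reads gave log2 changes of 0.90 (SE 0.164, adjusted p = 0.0109), 1.01 (SE 0.165, adjusted p = 0.00841) and 1.25 (SE 0.165, adjusted p = 0.00227). In SMARCA4-null cells the edgeR call was lost without any of the 4 libraries. In SMARCB1-null cells it was lost without the shallower null library or either wildtype library. Calls over all genes tested fell widely in these fits too, so the losses are not particular to SEMA6B.

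SEMA4F, a class 4 membrane semaphorin, rose a little in double-null cells to 2576, against 2015 in wildtype (ratio 1.28 with FDR 0.000275 per the authors' deposited table), a log2 ratio of 0.35 of which the same scaling leaves 0.17. SEMA4C had recovered reads of 2298 and 2620 in SMARCB1-null cells, 2625 and 2680 in SMARCA4-null cells and 3017 and 2632 in double-null cells, against 2956 and 3005 in wildtype, and was called nowhere in the authors' deposited table. In SMARCB1-null cells, SEMA4C lay below wildtype in both libraries, by a log2 change of -0.28 (edgeR adjusted p = 0.0621, or 0.0233 with TMM scaling). SEMA5A, which binds PLXNB3, differed widely between libraries of a group. It had 2.25 and 17.4 depth-corrected reads across the SMARCB1-null libraries, 16.2 and 15.4 in the SMARCA4-null libraries and 224 and 16.7 in the double-null libraries, against 40.5 and 34.6 in wildtype. Its double-null ratio per the authors' deposited table was 3.20 and was not called (FDR 0.727), and the deeper double-null library alone lay above wildtype. That library also has the higher NEFL reads of the pair, 85852 against 3135. Without that library the edgeR log2 change was -1.17 (adjusted p = 0.302), and without the shallower one it was 2.57 (adjusted p = 0.00562).

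**Figure D4:**
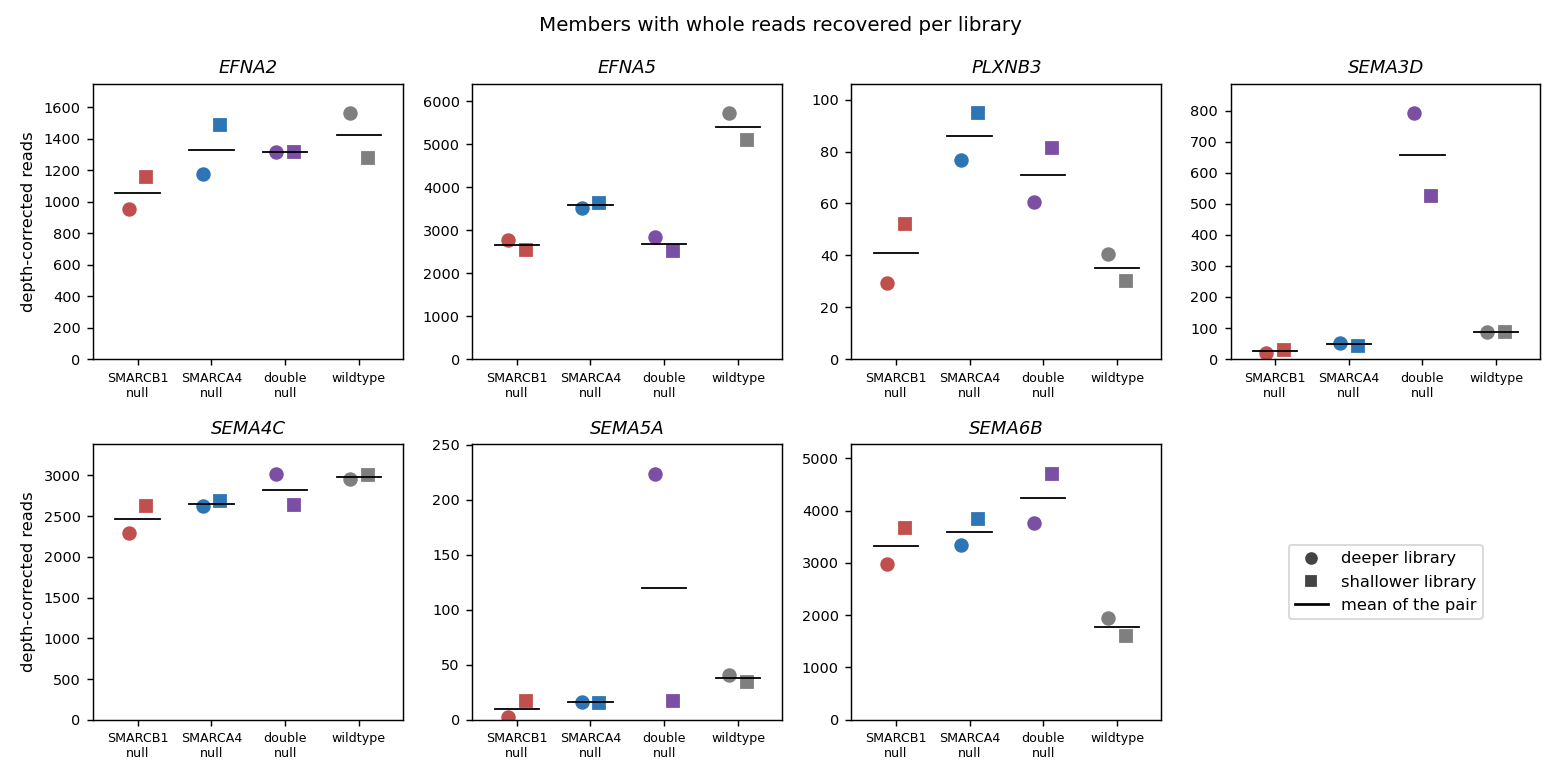
Depth-corrected reads (y axis, from 0) of the 7 members with whole reads recovered, in SMARCB1-null, SMARCA4-null, double-null and wildtype cells; circles are the deeper library of a group, squares the shallower, and lines their mean. SEMA3D is high in both double-null libraries (793 and 526), whereas SEMA5A is high in the deeper one alone (224 against 16.7).

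Plexins and neuropilins, the semaphorin receptors, gave 1 higher and 2 lower calls among 11 genes in SMARCB1-null cells. In SMARCA4-null cells 3 were higher and 1 lower, and in double-null cells 1 was higher and 1 lower. In that order, 27.3%, 36.4% and 18.2% were called, beside 13.6%, 11.9% and 18% of all genes. The double-null share is thus near that of all genes. PLXNC1, the receptor of SEMA7A, rose to 10750 depth-corrected reads in SMARCB1-null cells, 10582 in SMARCA4-null cells and 8761 in double-null cells, against 3246 in wildtype. PLXNC1 ratios per the authors' deposited table were 3.31 (FDR 3.9e-13), 3.26 (FDR 1.41e-12) and 2.70 (FDR 9.27e-09). Its ligand gene SEMA7A, at 526 in SMARCB1-null cells, 527 in SMARCA4-null cells and 821 in double-null cells, against 389 in wildtype, was called in none of them.

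NRP1, the co-receptor for SEMA3A and for vascular endothelial growth factor, fell to 493 in double-null cells and 3805 in SMARCB1-null cells, against 6803 in wildtype. The authors' deposited table gave NRP1 ratios of 0.0724 (FDR 8.81e-12) and 0.559 (FDR 0.00234). In SMARCA4-null cells NRP1 stood at 8253 and was not called (ratio 1.21, FDR 0.430). SEMA3A, SEMA3E and NRP1 were thus each called lower in SMARCB1-null cells and double-null cells. NRP2 had levels of 704 in SMARCB1-null cells, 883 in SMARCA4-null cells and 505 in double-null cells, against 71.4 in wildtype. The authors' deposited table called none of the NRP2 ratios, which were 9.85 (FDR 0.104), 12.4 (FDR 0.0661) and 7.08 (FDR 0.170).

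PLXND1, the receptor of SEMA3E, rose to 7209 in SMARCA4-null cells, against 3897 in wildtype (ratio 1.85 with FDR 0.000912 per the authors' deposited table), and stood at 5042 in SMARCB1-null cells and 4164 in double-null cells without a call. PLXNA1, a partner of the neuropilins, fell to 10014 in SMARCA4-null cells, against 14854 in wildtype (ratio 0.674 with FDR 0.00111 per the authors' deposited table). PLXNA3, of the same class, fell to 6354 in SMARCB1-null cells, against 8853 in wildtype (ratio 0.718 with FDR 0.0486 per the authors' deposited table). PLXNB3 was scarce, with 29.2 and 52.2 depth-corrected reads across the SMARCB1-null libraries, 76.9 and 94.8 in the SMARCA4-null libraries and 60.5 and 81.2 in the double-null libraries, against 40.5 and 30.0 in wildtype. The SMARCA4-null and double-null libraries lay above both wildtype libraries, and the SMARCB1-null libraries overlapped them. PLXNB3 was called higher in SMARCA4-null cells in the authors' deposited table (ratio 2.43, FDR 0.0139) and just missed the threshold in edgeR on recovered reads (log2 change 1.28, SE 0.396, adjusted p = 0.0530).

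Of the 6 SLIT and ROBO genes, 4 were called lower in SMARCB1-null cells. In SMARCA4-null cells 1 was called lower and 1 higher, and in double-null cells 2 were called lower. In that order, 66.7%, 33.3% and 33.3% of these 6 genes were called, beside 13.6%, 11.9% and 18% of all genes. SLIT3 fell to 22.3 depth-corrected reads in SMARCB1-null cells and 371 in double-null cells, against 2483 in wildtype. The authors' deposited table gave SLIT3 ratios of 0.00899 (FDR 0.0341) and 0.149 (FDR 0.000156), and in SMARCA4-null cells it stood at 1581 and was not called (ratio 0.637, FDR 0.309). SLIT2, like SLIT3 a secreted repellent, fell to 269 in SMARCB1-null cells and rose to 4483 in SMARCA4-null cells, against 2359 in wildtype, while double-null cells stood at 2442. SLIT2 ratios per the authors' deposited table were 0.114 (FDR 0.000222), 1.90 (FDR 0.0118) and, in double-null cells, 1.04 (FDR 0.953). SLIT2 was called lower in one single null and higher in the other, and the difference between the nulls was not itself tested.

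ROBO1, the receptor gene with the highest RPKM in wildtype, fell to 12936 in SMARCB1-null cells, 15248 in SMARCA4-null cells and 17231 in double-null cells, against 30948 in wildtype. ROBO1 ratios per the authors' deposited table were 0.418 (FDR 2.17e-25), 0.493 (FDR 1.57e-18) and 0.557 (FDR 5.14e-14). ROBO2, its neighbour on chromosome 3 in RefSeq, fell to 49.7 in SMARCB1-null cells, against 1259 in wildtype (ratio 0.0395 with FDR 0.0344 per the authors' deposited table). With 707 in SMARCA4-null cells and 941 in double-null cells, ROBO2 was not called there. ROBO3 was called in no comparison. SLIT2, SLIT3, ROBO1 and ROBO2 were thus all called lower in SMARCB1-null cells. The summed muscle marker level was also highest in these cells, as given above, and none of these 4 genes has reads per library.

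Differences between nulls could be tested for the 7 recovered members alone, with edgeR on recovered reads over 4177 genes. SEMA3D was the 1 member called between double-null and SMARCB1-null cells, higher by a log2 change of 4.74 (SE 0.335, adjusted p = 0.000280), where 2.73% of genes tested were called higher. Between double-null and SMARCA4-null cells, SEMA3D was higher by 3.80 (SE 0.317, adjusted p = 7.37e-05) and EFNA5 lower, at -0.42 (SE 0.0900, adjusted p = 0.0122), where 10.6% of genes were called higher and 5.12% lower. Between SMARCB1-null and SMARCA4-null cells, EFNA5 alone was called, lower at -0.43 (SE 0.0902, adjusted p = 0.0112), where 7.85% of genes were called lower. The SEMA3D call against SMARCA4-null cells held on leaving out any 1 of the 8 libraries. Its call against SMARCB1-null cells was lost without either SMARCB1-null library or either wildtype library. In those fits calls over all genes nearly vanished in that comparison, so this loss is not particular to SEMA3D. Both EFNA5 calls between nulls were lost on leaving out any 1 library that was not double-null. Calls over all genes tested fell widely in these fits too, so the EFNA5 losses are not particular to that gene.

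Against wildtype, edgeR on recovered reads called 1 member higher and 2 lower in SMARCB1-null cells, where 12.6% of genes tested were called higher and 6.7% lower. In SMARCA4-null cells 1 member was called higher and 1 lower, beside 11.2% and 5.58% of genes tested. In double-null cells 2 members were called higher and 1 lower, beside 22.6% and 7.35%.

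A large ratio was not always a call. Members that differed from wildtype by 2-fold or more without passing the threshold numbered 6 in SMARCB1-null cells, 13 in SMARCA4-null cells and 18 in double-null cells. In double-null cells these included PLXNA4, a receptor for class 6 and, with neuropilin, class 3 semaphorins, at 2714 depth-corrected reads, against 1.99 in wildtype (ratio 1352 with FDR 0.312 per the authors' deposited table). SLIT1 stood at 1516 in double-null cells, against 63.6 in wildtype (ratio 23.8 with FDR 0.0566 per the authors' deposited table). SEMA6D, EPHA5 and PLXNA2 had double-null ratios of 12.7, 11.4 and 8.21 per the authors' deposited table, with FDR between 0.719 and 0.902. Reads per library were not recovered for any of these 5 genes, and they stand beside the summed neuron marker level of double-null cells. In SMARCA4-null cells EPHA6 and EPHA5 stood at 0.995 and 2.68 depth-corrected reads, against 310 and 82.6 in wildtype, also without a call (FDR of 0.568 and 0.364 per the authors' deposited table).

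The remaining uncalled members included several well-expressed genes whose ratios stayed close to 1. EPHB4, a receptor for EFNB2, stood at 6207 in SMARCB1-null cells, 5936 in SMARCA4-null cells and 5692 in double-null cells, against 5922 in wildtype. PLXNB2, a receptor of class 4 semaphorins, stood at 9205 in SMARCB1-null cells, 10777 in SMARCA4-null cells and 10007 in double-null cells, against 11060 in wildtype. PLXNB1, the receptor of SEMA4D, missed the threshold by little in SMARCB1-null cells (ratio 0.567 with FDR 0.05004 per the authors' deposited table). A missed threshold does not show that these levels were equal. The genes EFNA4, EFNA3 and EFNA1 lie in a row on chromosome 1 in RefSeq. Of these, EFNA1 was called in SMARCA4-null cells, where EFNA3 had a ratio of 1.48 and EFNA4 of 1.00 in the authors' deposited table, neither called.

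Other genes of the guidance pathways were counted in 3 lists. Over all genes, 13.6% were called in SMARCB1-null cells, 11.9% in SMARCA4-null cells and 18% in double-null cells. The lists were not tested against these shares. Of 18 netrin and RGM system genes, which hold the netrins, their receptors and the repulsive guidance molecules, 4 were called higher and 1 lower in SMARCB1-null cells, 2 higher and 1 lower in SMARCA4-null cells, and 7 higher and 1 lower in double-null cells. Their median log2 ratios were 0.71, 0.43 and 2.33 in that order. The netrin receptor gene UNC5C rose to 2547 in SMARCB1-null cells and 2716 in double-null cells, against 94.8 in wildtype (ratio 26.9 with FDR 0.000310 and ratio 28.7 with FDR 0.000162 per the authors' deposited table). UNC5B, of the same family, rose to 716 in SMARCB1-null cells and 1231 in double-null cells, against 231 in wildtype, and UNC5A to 821 in double-null cells, against 86.0 in wildtype. NTN1, the ligand netrin-1, rose to 1860 in SMARCB1-null cells, 1758 in SMARCA4-null cells and 2461 in double-null cells, against 471 in wildtype. The authors' deposited table gave NTN1 ratios of 3.95 (FDR 0.00526), 3.73 (FDR 0.00989) and 5.22 (FDR 0.000212). FLRT2, a membrane ligand of UNC5 receptors, fell to 21.7 in SMARCB1-null cells, 568 in SMARCA4-null cells and 391 in double-null cells, against 3939 in wildtype (ratios 0.00550, 0.144 and 0.0992 per the authors' deposited table, each called). In double-null cells the deeper library held 588 depth-corrected reads of UNC5D and 257 of CNTN2, against 2.08 and 11.4 in the shallower one.

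Of 32 cytoplasmic effectors and adaptors, 2 were called higher and 4 lower in SMARCB1-null cells. In SMARCA4-null cells 1 was higher and 4 lower, and in double-null cells 7 were higher and 2 lower. These counts stand beside 13.6%, 11.9% and 18% of all genes called. Median log2 ratios of the list were -0.07, 0.09 and 0.31 in that order. SRGAP1, a GTPase-activating protein that binds ROBO1, rose to 2746 in SMARCB1-null cells, 2035 in SMARCA4-null cells and 4225 in double-null cells, against 764 in wildtype (ratios of 3.59 with FDR 0.000637, 2.66 with FDR 0.0235 and 5.53 with FDR 2.68e-07 per the authors' deposited table). The collapsin response mediator genes DPYSL4 and DPYSL5 fell in both single nulls, DPYSL4 to 2358 in SMARCB1-null cells and 1982 in SMARCA4-null cells, against 5007 in wildtype. DPYSL5 fell to 10333 in SMARCB1-null cells and 11787 in SMARCA4-null cells, against 22963 in wildtype. DPYSL3 rose to 32268 in double-null cells, against 1564 in wildtype (ratio 20.6 with FDR 0.00925 per the authors' deposited table), beside the neuron marker level of that group. In double-null cells SRGAP3 and the kinase gene ABL1 also rose (ratios 7.83 and 3.52 per the authors' deposited table). The authors' deposited table also called ABL2, a relative of ABL1, higher in SMARCB1-null cells (ratio 1.64) and CHN1, a Rac GTPase-activating protein, lower in SMARCA4-null cells (ratio 0.669).

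Of 14 co-receptors and sheddases, 2 were called higher and 2 lower in SMARCB1-null cells. In SMARCA4-null cells 1 was higher and 1 lower, and in double-null cells 3 were higher and 2 lower. These counts stand beside 13.6%, 11.9% and 18% of all genes called. Median log2 ratios of the list were -0.52, -0.27 and 0.37 in that order. MET, the hepatocyte growth factor receptor that pairs with B-type plexins, fell to 4396 in SMARCB1-null cells, 5076 in SMARCA4-null cells and 732 in double-null cells, against 12911 in wildtype. MET ratios per the authors' deposited table were 0.341 (FDR 4.34e-14), 0.393 (FDR 1.27e-11) and 0.0567 (FDR 4.01e-21). PLXDC2, a membrane protein with a plexin-like domain, fell to 688 in SMARCB1-null cells and 128 in double-null cells, against 2497 in wildtype (ratios 0.276 and 0.0512 per the authors' deposited table). Its SMARCA4-null level of 2.11 was the lowest of the 4 groups but not called (ratio 0.000848 with FDR 0.508 per the authors' deposited table). DCBLD2, a neuropilin-like membrane protein, rose to 14547 in SMARCB1-null cells and 11702 in double-null cells, against 8203 in wildtype, and stood at 6022 in SMARCA4-null cells without a call (ratio 0.734 with FDR 0.110 per the authors' deposited table). ITGB1, a chain of the SEMA7A-binding integrin, was called higher in all 3 nulls with ratios of 1.15, 1.17 and 1.18 per the authors' deposited table. TMM scaling would leave log2 ratios of 0.12, 0.17 and 0.05 in that order, which is little of the double-null rise. As said for EFNB1, that shift comes from recovered genes alone and may be too large. The authors' deposited table also called its partner ITGA1 higher in double-null cells (ratio 3.02).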

How the data were processed

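RNA of 8 HAP1 samples was sequenced from libraries of a stranded mRNA kit, per the labels' protocols, and STAR, Partek 4.0 and hg19 were used, per the submitters' processing notes. Which test, normalization and annotation served is not given in the sources used here. Both deposited tables hold comparisons: per the file headers, the authors' total reads over all samples (an estimated count), p-value, FDR, ratio and signed fold change (a score in sign) of each null against wildtype. The deposited FDR was used as given.

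Each ratio behaved as a quotient of group means of depth-corrected reads plus a constant, so that genes with 1 read showed what a read adds in each library. Whole reads per library were solved from the total and the 3 ratios for 6270 of 9330 genes with totals whole within 0.001, and for 0 of 2000 decoys with shifted ratios. Of the members 25 had such totals and 7 were solved. Levels of other genes came from total and ratios with both libraries of a group taken as equal. The error of such levels was measured only on solved genes with enough reads in the group, from 2359 in wildtype to 2970 in double-null cells. On these genes the median error was 0.283% to 0.367%. The 95th percentile was 2.00% in SMARCB1-null, 2.68% in SMARCA4-null, 14.7% in double-null and 1.71% in wildtype cells. For levels of few reads, such as SLIT3 in SMARCB1-null cells or EPHA6 in SMARCA4-null cells, no error was measured. RPKM used GENCODE 29 exon lengths.

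Solved reads, rounded to whole numbers by construction, went into edgeR 4.0.16 in R 4.3.3 (all 8 libraries, the authors' scaling, filterByExpr, robust quasi-likelihood test) with Benjamini-Hochberg adjustment. An SE is the size of the log2 change divided by the square root of that test's F statistic. It draws on a spread estimated over all libraries and is not the spread of a pair. Solved genes do not stand for the transcriptome. Both steps were tested on simulated data. Alternatives were DESeq2 1.42.0, TMM scaling, no filter, each library left out, other thresholds and the shorter table.

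Named members are those at FDR under 0.05 in at least 1 comparison with a level of at least 50 in the higher group. The 7 with recovered reads, the uncalled members and the marker genes were added after their values were seen. Listed partner genes needed a level of 500, at most 4 per list and comparison. DCC, UNC5D and CNTN2 fell short of that level and were named after their reads per library were seen. Members and lists were chosen with earlier results of these data known.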

Additional observations from a re-analysis of the deposited data

Results flagged for a closer look

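SEMA3D and EFNA5 are given again because their changes differed between nulls in a direct test, edgeR's quasi-likelihood test on recovered reads with Benjamini-Hochberg adjustment. SEMA3D was higher in double-null cells than in SMARCB1-null cells by a log2 change of 4.74 (adjusted p = 0.000280) and than in SMARCA4-null cells by 3.80 (adjusted p = 7.37e-05), with both double-null libraries above all others. EFNA5 was lower than in SMARCA4-null cells by -0.42 in double-null cells (adjusted p = 0.0122) and by -0.43 in SMARCB1-null cells (adjusted p = 0.0112), with 2 of 2 libraries of each below both SMARCA4-null libraries. Leaving out any 1 library that was not double-null ended both EFNA5 calls. The SEMA3D call against SMARCB1-null cells was lost without either SMARCB1-null or either wildtype library. Calls over all genes tested fell widely in these fits too, so the losses are not particular to these genes. The double-null samples were also of later passage than the others, which cannot be told apart from the genotype.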

How the results depend on the processing

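TMM scaling, an alternative to the authors' scaling that was applied to their ratios after seeing the data, would move them by -0.08, -0.06 and -0.19 on the log2 scale in SMARCB1-null, SMARCA4-null and double-null cells. Every called member changed by more than that, so no direction could turn, but in double-null cells the log2 ratio of EFNB1 would be 0.13 and that of SEMA4F 0.17. The shifts come from recovered genes alone, with a median double-null log2 change of 0.23. Over all genes with at least 1000 total reads it was 0.08, so the double-null shift may be too large for deeply read genes. At FDR under 0.01 the lower calls in SMARCB1-null cells numbered 10 (16 at 0.05) and the higher calls in SMARCA4-null cells 5 (against 8), and at FDR under 0.1 the higher calls in double-null cells numbered 14 (against 8). Requiring 2-fold or 100 total reads kept every count within 1.5 times. edgeR on recovered reads covers 7 members and called 1 higher and 2 lower in SMARCB1-null cells, 1 and 1 in SMARCA4-null cells and 2 and 1 in double-null cells. With DESeq2 the lower calls were 4, 3 and 2 in that order, and 2 were called in double-null cells against SMARCB1-null cells; with TMM scaling the lower calls in SMARCB1-null cells were 4. Leaving out a library gave 0 to 1 higher and 1 to 2 lower in SMARCB1-null cells, 0 to 0 and 0 to 0 in SMARCA4-null cells, 2 to 3 and 1 to 1 in double-null cells, and, between nulls, 0 to 0 for SMARCB1-null cells against SMARCA4-null cells, 0 to 2 for double-null cells against SMARCB1-null cells and 1 to 3 against SMARCA4-null cells. In these fits the lone library of a group is assumed to vary like the other groups, and more genes of few reads are tested. Leaving out a wildtype or single-null library lowered the calls over all genes in every comparison, also where that library's group was not compared. A call lost in these fits is thus not particular to a member. Of single members in SMARCA4-null cells, EFNA5 passed with edgeR and PLXNB3 was lost with edgeR. In the shorter table, EFNA5 in SMARCA4-null cells (FDR 1.03e-06) and EPHB3 and EPHB6 in double-null cells passed. That table is a filtered list with far smaller p-values at nearly the same ratios, so these passes add no separate support. No member was without reads in a group, so the bound with another floor was not needed. No paired analysis was possible because the tables hold comparisons and the recovered libraries cannot be tied to numbered samples.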

Other observations

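Markers of further cell types were summed beside the members. The levels of 7 fibroblast markers summed to 3343 in SMARCB1-null cells, 18940 in SMARCA4-null cells and 7178 in double-null cells, against 556 in wildtype, and most of the SMARCA4-null sum was PDGFRA, at 18252 depth-corrected reads against 138 in wildtype (ratio 133 in the authors' deposited table). Of the 7, 2 were called higher in SMARCB1-null cells (PDGFRA and LUM), 1 in SMARCA4-null cells (PDGFRA) and 2 in double-null cells (PDGFRA and LUM). The LUM calls rest on few reads. LUM had 22.5 and 3.48 depth-corrected reads in SMARCB1-null cells and 30.6 and 17.7 in double-null cells, against none in wildtype. The 5 epithelium markers summed to 817 in SMARCB1-null cells, 2129 in SMARCA4-null cells and 1147 in double-null cells, against 2178 in wildtype, and the 6 endothelium markers to 75.1, 40.8, 56.3 and 41.8 in the same order. Of the epithelium markers 2 were called lower in SMARCB1-null cells, 1 higher in SMARCA4-null cells, and 1 higher and 1 lower in double-null cells. Both higher calls were CDH1, which stayed near 0. It had 2.56 and 3.31 depth-corrected reads in SMARCA4-null cells and 7.66 and 5.20 in double-null cells, against none in wildtype. No endothelium marker was called in any comparison. CD33, a myeloid surface marker, had 28.1 and 49.9 depth-corrected reads in SMARCB1-null cells, 21.4 and 19.8 in SMARCA4-null cells and 62.0 and 91.6 in double-null cells, against 5.78 and 5.77 in wildtype, and was called higher in all 3 comparisons in the authors' deposited table.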
